A study of Mus musculus with 4 samples.

Results

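The genes described here are the secreted Wnt ligands of the mouse, their receptors, their antagonists and the core components that carry the signal, measured in 2 prostate tumor cell lines and in normal prostate. They were taken by gene symbol: the numbered Wnt, Fzd, Dkk, Sfrp and Axin families, and Lrp5, Lrp6, Ctnnb1, Apc, Lef1, Tcf7, Tcf7l1, Tcf7l2, Wif1, Lgr5, Nkd1, Nkd2 and Porcn. This gave 58 of the 24613 probes on the Illumina bead array, for 47 of 15967 named genes. Axin1, Lrp5, Nkd1, Tcf7 and Wnt8b were not analysed here. T23 and T1525 are lines grown from prostate tumors of C57Bl/6 TRAMP mice at 30 weeks of age, with 1 array each. TRAMP mice carry SV40 tumor antigens driven in the prostate epithelium by the probasin promoter. The 2 arrays of normal prostate, normal 1 and normal 2, came from wild-type C57Bl/6 mice at 18 weeks of age. Line, culture, tumor and age go together, and cannot be told apart. Nothing in the labels ties the 2 normal arrays to 2 animals, so their spread may be technical. The p-values of each line against normal, and between the lines, reflect no more than that array-to-array spread.

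Wnt proteins are secreted lipid-modified ligands that bind Frizzled receptors. With the co-receptors Lrp5 or Lrp6 they stop the destruction complex of Axin, Apc and Gsk3 from degrading beta-catenin, which then enters the nucleus and acts through Tcf and Lef factors; other Wnts act through Ror and Ryk receptors without beta-catenin. In the prostate, Wnt ligands and their secreted antagonists are made in large part by the stroma and shape budding and regrowth of the epithelium. Axin2, Lef1, Rnf43, Notum, Sp5 and Lgr5 are widely used readouts of beta-catenin signaling, since it induces them, and several feed back on it.

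All levels below are log2 of the deposited normalized intensity, and a probe was called above background where it passed 6.69 on that scale. Of the 47 genes, 36 passed on at least 1 array, and the other 11 lay at background on all 4 arrays. The numbers of the 36 above background were 21 in T23 and 22 in T1525, against 29 in normal 1 and 29 in normal 2. For folds, any value under the threshold was raised to it, and the fold is then given as "at least". Adjusted p-values are those of limma, with Benjamini-Hochberg adjustment over all 15767 probes tested and a threshold of 0.05, and belong to the fitted difference, not to the bound. Each SE is in log2 units and belongs to the fitted log2 difference, also where it stands beside a fold. Between 50.8% and 51% of probes lay above background on each array, and precision is limited by having 4 arrays.

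Of the 36 genes, 9 passed the threshold only through normal arrays (Fzd4, Lgr5, Sfrp1, Sfrp2, Sfrp4, Sfrp5, Wnt2, Wnt3a and Wnt4) and 4 only through the lines (Lef1, Wnt3, Wnt7a and Wnt10b), so that in these genes which group was higher was set by the filter. Both lines were first taken as 1 class against normal prostate, with T23 and T1525 standing as replicates. The difference between the lines thus entered the variance, and genes on which they differ widely are hard to call. For Dkk3 the SE was 2.59 in this class fit, against 0.38 for each line against normal. In the class fit limma called 4 of the 36 genes, all lower in the lines: Wif1, Sfrp2, Wnt2 and Wnt4. Over all 10903 named genes tested, 11.4% were called, 5.3% higher and 6.09% lower, so the share of 11.1% among the Wnt genes lay near the background. The median log2 difference was -0.17 over the 36 genes and 0.11 over all genes. The lines lay below both normal arrays in 13 genes, against 28.5% of all genes, above both in 7, against 36.3%, and on opposite sides of both normal arrays in 10, against 17.3%. These placements used values as measured, without raising those under the threshold. Some thus rest on differences within background, as for Fzd4, at 6.36 in both T23 and normal 1. Each line was then tested alone, its single array taken to have the variance of the normal pair, so that no spread within a line was measured. On that basis 14 of 36 genes were called in T23, 6 higher and 8 lower, against 30.4% of all genes (15.5% higher and 14.9% lower). In T1525, 11 of 36 were called, 4 higher and 7 lower, against 31.3% of all genes (16.5% higher and 14.8% lower). Directly between the lines, 9 of 36 were called, 5 higher and 4 lower in T23, against 8.98% of all genes (4.66% higher and 4.32% lower).

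**Figure D1:**
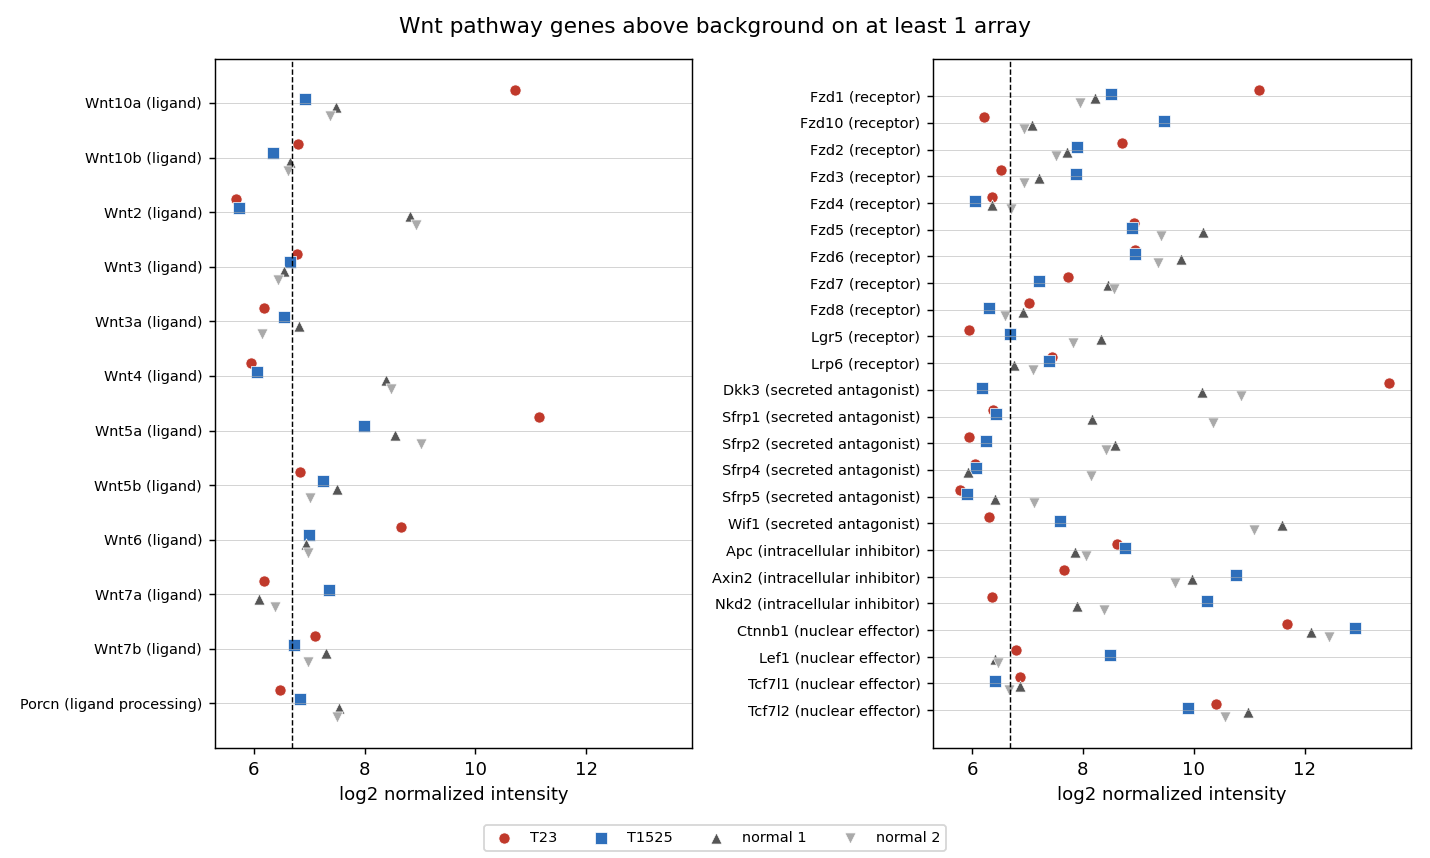
Log2 normalized intensity (x axis) of the 36 Wnt genes above background on at least 1 array (y axis, with the role of each gene). Each point is 1 array, with points of a gene offset vertically, and the dashed line is the background threshold of 6.69. Wnt2, Wnt4, Sfrp1 and Sfrp2 lie left of the line in both tumor lines and right of it in both normal arrays, while Dkk3, Wnt10a and Fzd1 are far to the right in T23 and Axin2, Nkd2, Fzd10 and Lef1 are farthest right in T1525.

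Of the 9 secreted antagonist genes with a probe, Wif1 and Sfrp2 were called lower in the lines, Dkk3 differed between the lines, and 3 were at background on all arrays. Wif1, which binds Wnt ligands outside the cell, had log2 levels of 6.30 in T23 and 7.58 in T1525, against 11.60 in normal 1 and 11.08 in normal 2. Both lines lay far below both normal arrays, and T23 was at background. Taken as a class, the lines had at least 18.4-fold less Wif1 (fitted log2 difference -4.40, SE 0.53, limma adjusted p = 0.0261). It was at least 25.0-fold lower in T23 and 13.5-fold lower in T1525, and the lines were not called apart (log2 difference -1.28, SE 0.36, limma adjusted p = 0.133).

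Sfrp2, a secreted Frizzled-related protein that sequesters Wnts, read 5.94 in T23 and 6.25 in T1525, against 8.58 in normal 1 and 8.42 in normal 2. It was at background in both lines and above it in both normal arrays, and at least 3.50-fold lower (fitted -2.40 log2, SE 0.25, limma adjusted p = 0.0208). Sfrp1, another secreted Frizzled-related protein, read 6.37 in T23 and 6.43 in T1525, against 8.17 in normal 1 and 10.35 in normal 2. The groups did not overlap and Sfrp1 was at least 5.91-fold below normal in the lines, but the 2 normal arrays were themselves far apart, and the fitted value, -2.86, was not called (SE 0.79, limma adjusted p = 0.1). Sfrp5 read 5.79 in T23 and 5.91 in T1525, against 6.41 in normal 1 and 7.11 in normal 2, and Sfrp4 was above background on 1 array, normal 2, at 8.14.

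Normal 2 was above normal 1 for Sfrp1, Sfrp4 and Sfrp5, but not for Sfrp2, at 8.58 in normal 1 and 8.42 in normal 2. The mean log2 level of 10 fibroblast markers differed the same way, at 9.09 in normal 1 and 10.49 in normal 2, and that of 7 leukocyte markers at 9.56 and 11.17. So did endothelial (9.24 and 10.32), basal epithelial (10.20 and 11.08) and adipose markers (9.30 and 9.86). Luminal epithelial (11.85 and 11.53) and smooth muscle markers (12.76 and 12.64) went slightly the other way. The part of these cells in the Sfrp values was not tested. In RNA of whole tissue, fewer cells of a type and less RNA per cell cannot be told apart, and this holds for every gene here that was lower in the lines.

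Dkk3, a secreted glycoprotein of the Dickkopf family, was the antagonist on which the lines differed most. It read 13.52 in T23 and 6.19 in T1525, against 10.15 in normal 1 and 10.86 in normal 2. T23 was above both normal arrays and T1525 at background below both. Dkk3 was 8.08-fold higher in T23 than in normal prostate (SE 0.38, limma adjusted p = 0.0153) and at least 14.1-fold lower in T1525 (SE 0.38, limma adjusted p = 0.0085). Between the lines it was at least 114-fold higher in T23 (fitted log2 difference 7.33, SE 0.44, limma adjusted p = 0.0132). A second Dkk3 probe lay at background on all 4 arrays. The Dickkopfs that block Lrp6, Dkk1, Dkk2 and Dkk4, were at background throughout.

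Among the ligands, Wnt2 and Wnt4 were called lower in the lines. Wnt2, a ligand of lung and placental development, read 5.69 in T23 and 5.73 in T1525, against 8.83 in normal 1 and 8.93 in normal 2. It was at background in both lines and at least 4.55-fold lower (fitted -3.17 log2, SE 0.22, limma adjusted p = 0.0123). Wnt4, a ligand of urogenital and gonadal development, read 5.96 in T23 and 6.05 in T1525, against 8.39 in normal 1 and 8.48 in normal 2. It too was at background in both lines, at least 3.34-fold lower (fitted -2.43 log2, SE 0.22, limma adjusted p = 0.0185).

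T23 had higher levels of 3 other ligands. Wnt5a, the prototype of the ligands that act through Ror2, read 11.14 in T23 and 7.99 in T1525, against 8.55 in normal 1 and 9.02 in normal 2. It was above both normal arrays in T23 and below both in T1525. It was 5.12-fold higher in T23 than in normal prostate (SE 0.30, limma adjusted p = 0.0156) and 8.87-fold higher than in T1525 (SE 0.35, limma adjusted p = 0.0243). The second Wnt5a probe read 10.13 in T23 and 7.16 in T1525, against 7.31 in normal 1 and 7.79 in normal 2, with T23 called higher there too (limma adjusted p = 0.0142).

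Wnt10a, a ligand of skin and tooth development, read 10.71 in T23 and 6.93 in T1525, against 7.48 in normal 1 and 7.37 in normal 2. It was 9.77-fold higher in T23 than in normal prostate (SE 0.22, limma adjusted p = 0.00659) and 13.7-fold higher than in T1525 (SE 0.26, limma adjusted p = 0.0143). Wnt6, which signals in epithelial and somite development, read 8.66 in T23 and 7.00 in T1525, against 6.95 in normal 1 and 6.98 in normal 2. It was 3.23-fold higher in T23 than in normal prostate (limma adjusted p = 0.0161) and 3.15-fold higher than in T1525 (limma adjusted p = 0.0429). In T1525 its log2 difference from normal was 0.04 (limma adjusted p = 0.91). Wnt6 and Wnt10a are next to each other among the protein-coding genes of the RefSeq table of GRCm38.p6, and both were highest in T23. The other neighboring pairs with measured members were Wnt3a and Wnt9a, Wnt9b and Wnt3, and Wnt10b and Wnt1, whose levels stayed at or near background.

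T1525 had 1 ligand called higher. Wnt7a, a ligand of Müllerian duct and limb patterning, read 6.18 in T23 and 7.35 in T1525, against 6.09 in normal 1 and 6.38 in normal 2. It was above background in T1525 only, at least 1.58-fold above normal prostate (fitted log2 difference 1.12, SE 0.25, limma adjusted p = 0.0435). Porcn, the acyltransferase that Wnts need for secretion, read 6.48 in T23 and 6.83 in T1525, against 7.54 in normal 1 and 7.50 in normal 2. It was at least 1.78-fold lower in T23 (limma adjusted p = 0.0389) and 1.61-fold below normal in T1525 without passing the test (limma adjusted p = 0.0875). Wnt5b and Wnt7b were above background on all 4 arrays with no call, Wnt3, Wnt3a and Wnt10b passed it on 1 array each by a narrow margin, and Wnt1, Wnt2b, Wnt8a, Wnt9a, Wnt9b, Wnt11 and Wnt16 were at background on all 4.

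The receptors also differed between the lines. Fzd1 read 11.17 in T23 and 8.50 in T1525, against 8.22 in normal 1 and 7.94 in normal 2. T23 stood far above the other arrays, 8.53-fold over normal prostate (SE 0.25, limma adjusted p = 0.0081) and 6.38-fold over T1525 (SE 0.29, limma adjusted p = 0.0238). Fzd10, a receptor with low levels in most adult tissues, showed the opposite order, with 6.22 in T23 and 9.46 in T1525, against 7.07 in normal 1 and 6.94 in normal 2. It was 5.49-fold higher in T1525 than in normal prostate (SE 0.23, limma adjusted p = 0.00926), and T23 was at background, at least 6.81-fold below T1525 (SE 0.26, limma adjusted p = 0.0158). The second Fzd10 probe read 8.37 in T1525 and at background on the 3 other arrays.

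Differences in other Frizzled genes were smaller than these. Fzd2 read 8.70 in T23 and 7.90 in T1525, against 7.71 in normal 1 and 7.52 in normal 2, a 2.13-fold rise in T23 (SE 0.23, limma adjusted p = 0.0405). Fzd7, a receptor of stem and progenitor cells, read 7.73 in T23 and 7.21 in T1525, against 8.46 in normal 1 and 8.56 in normal 2. Both lines lay below both normal arrays, and Fzd7 fell 2.47-fold in T1525 (SE 0.22, limma adjusted p = 0.0255). Fzd3 read 6.51 in T23 and 7.88 in T1525, against 7.20 in normal 1 and 6.93 in normal 2, without a call. Fzd5 and Fzd6 lay below both normal arrays in both lines, by 0.89 and 0.63 on the log2 scale in the class fit, also without a call.

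Lgr5, the R-spondin receptor that marks stem cells in several epithelia, read 5.95 in T23 and 6.68 in T1525, against 8.33 in normal 1 and 7.81 in normal 2. It was at background in both lines and at least 2.60-fold lower in each, called in T23 (limma adjusted p = 0.0201) and in T1525 (limma adjusted p = 0.0433), though not in the class fit (limma adjusted p = 0.0649). The co-receptor Lrp6 read 7.44 in T23 and 7.39 in T1525, against 6.76 in normal 1 and 7.10 in normal 2, without a call. Fzd4 passed the threshold in normal 2 at 6.70, Fzd8 in T23 at 7.03 and in normal 1 at 6.93, and Fzd9 on no array.

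Of the intracellular inhibitors, Axin2 and Nkd2 were lower in T23 than in T1525. Axin2, a scaffold of the destruction complex, read 7.66 in T23 and 10.77 in T1525, against 9.97 in normal 1 and 9.66 in normal 2. T23 was 4.44-fold lower than normal prostate (SE 0.26, limma adjusted p = 0.0144), while T1525 was above both normal arrays, a 1.93-fold difference that did not pass (SE 0.26, limma adjusted p = 0.0629). Axin2 was 8.60-fold lower in T23 than in T1525 (log2 difference -3.10, SE 0.30, limma adjusted p = 0.0192).

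Nkd2, which binds Dishevelled and damps the signal, read 6.36 in T23 and 10.24 in T1525, against 7.89 in normal 1 and 8.38 in normal 2. It was at background in T23 and above both normal arrays in T1525. It was at least 2.71-fold lower in T23 (SE 0.30, limma adjusted p = 0.0262) and 4.29-fold higher in T1525 (SE 0.30, limma adjusted p = 0.0184) than in normal prostate, and at least 11.7-fold lower in T23 than in T1525 (SE 0.35, limma adjusted p = 0.018). Apc, the tumor suppressor of the destruction complex, read 8.62 in T23 and 8.76 in T1525, against 7.86 in normal 1 and 8.06 in normal 2. Both lines lay above both normal arrays, by 0.73 in the class fit (SE 0.23), without passing (limma adjusted p = 0.125); a second Apc probe was at background on all arrays.

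Of the nuclear effectors, Lef1, a DNA-binding partner of beta-catenin that is itself induced by the pathway, was called. It read 6.79 in T23 and 8.48 in T1525, against 6.41 in normal 1 and 6.47 in normal 2. It was at least 3.46-fold higher in T1525 than in normal prostate, where it was at background (SE 0.22, limma adjusted p = 0.0114), and 3.24-fold lower in T23 than in T1525 (SE 0.26, limma adjusted p = 0.0412). The second Lef1 probe read 7.02 in T1525 and lay at background elsewhere.

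Ctnnb1, which encodes beta-catenin, read 11.69 in T23 and 12.92 in T1525, against 12.12 in normal 1 and 12.44 in normal 2. The lines lay on opposite sides of the normal arrays, and the 2.34-fold lower level in T23 than in T1525 did not pass (SE 0.30, limma adjusted p = 0.102). Its 2 probes disagreed: the dimmer one read 8.05 in T23 and 6.76 in T1525, against 6.76 in normal 1 and 6.62 in normal 2, and was called higher in T23 than in normal prostate (log2 difference 1.36, limma adjusted p = 0.025). Tcf7l2, the main Tcf factor of many adult epithelia, read 10.41 in T23 and 9.90 in T1525, against 10.99 in normal 1 and 10.56 in normal 2, without a call. Tcf7l1 read 6.86 in T23 and 6.42 in T1525, against 6.86 in normal 1 and 6.67 in normal 2.

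**Figure D2:**
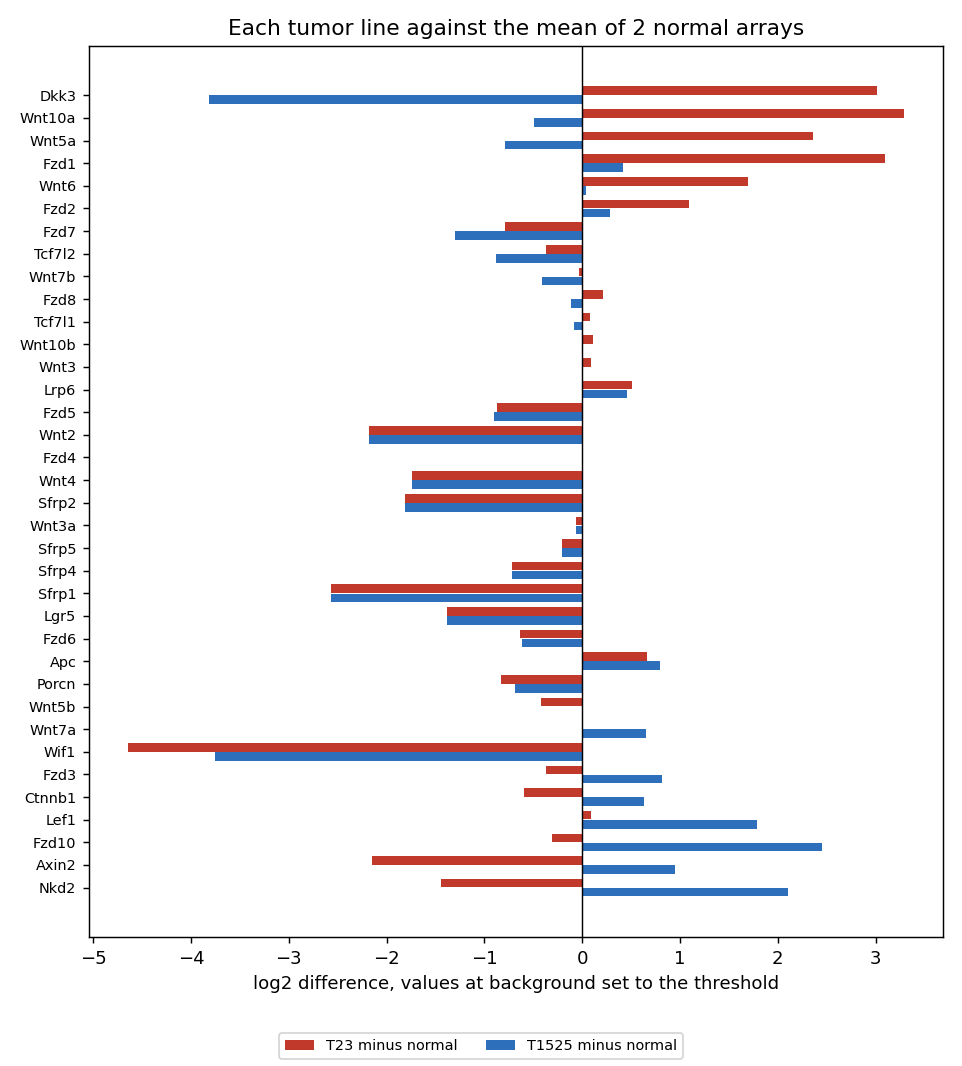
Log2 difference (x axis) of each tumor line from the mean of the 2 normal arrays for the 36 Wnt genes (y axis), where any value under the threshold was raised to it, with genes ordered by T23 minus T1525. Both sets of bars share the same normal arrays. Dkk3 differs by 3.01 in T23 and -3.81 in T1525, while Axin2 differs by -2.15 in T23 and 0.95 in T1525, and bars of Wif1, Wnt2, Wnt4, Sfrp1 and Sfrp2 point to lower levels in both lines.

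The 250 bases before the start site are shown for 3 genes that were higher in T1525 than in T23 (Axin2, Nkd2 and Lef1) and 2 that were higher in T23 (Wnt6 and Fzd1), 5′ to 3′ on the strand of the gene, as RefSeq promoter windows of GRCm38.p6. They are shown because Tcf and Lef factors bind DNA in the pathway, and capitals mark matches, on either strand, to the motif CTTTGAA, the motif CTTTGAT, the motif CTTTGTA or the motif CTTTGTT, letters that resemble the core of their site.
Axin2 (chr11:108920099-108920348, + strand): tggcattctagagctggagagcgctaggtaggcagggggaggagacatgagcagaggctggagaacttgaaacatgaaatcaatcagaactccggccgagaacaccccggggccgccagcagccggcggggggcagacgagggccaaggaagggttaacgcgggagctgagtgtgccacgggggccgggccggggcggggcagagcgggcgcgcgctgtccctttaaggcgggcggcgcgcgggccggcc
Nkd2 (chr13:73847632-73847881, - strand): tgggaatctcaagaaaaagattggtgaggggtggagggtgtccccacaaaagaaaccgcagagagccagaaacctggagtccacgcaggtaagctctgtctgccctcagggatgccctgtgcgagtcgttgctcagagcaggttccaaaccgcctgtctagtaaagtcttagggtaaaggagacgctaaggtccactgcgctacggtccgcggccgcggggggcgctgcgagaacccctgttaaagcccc
Lef1 (chr3:131156044-131156293, + strand, 1 of 4 start sites): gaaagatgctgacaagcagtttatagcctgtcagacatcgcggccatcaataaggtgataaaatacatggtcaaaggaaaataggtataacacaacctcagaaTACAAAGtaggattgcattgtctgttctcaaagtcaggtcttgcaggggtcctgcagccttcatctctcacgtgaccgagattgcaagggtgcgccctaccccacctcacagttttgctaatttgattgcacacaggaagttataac
Wnt6 (chr1:74771642-74771891, + strand): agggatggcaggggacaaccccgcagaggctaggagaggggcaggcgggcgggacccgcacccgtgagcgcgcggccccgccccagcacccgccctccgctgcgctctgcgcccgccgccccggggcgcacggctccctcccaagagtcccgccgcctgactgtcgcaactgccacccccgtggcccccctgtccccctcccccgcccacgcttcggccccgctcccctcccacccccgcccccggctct
Fzd1 (chr5:4758217-4758466, - strand): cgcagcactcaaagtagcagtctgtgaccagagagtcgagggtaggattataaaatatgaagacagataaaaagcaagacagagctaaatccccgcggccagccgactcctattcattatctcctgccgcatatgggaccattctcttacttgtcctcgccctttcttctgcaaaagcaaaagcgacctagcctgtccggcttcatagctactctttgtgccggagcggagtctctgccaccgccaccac
Of these 5 windows, the one of Lef1 held a match, as TACAAAG, the reverse complement of CTTTGTA. It was shown for that match, and the 3 other Lef1 windows held none. The table held windows for 31 of the 47 genes, 39 in all, of which 6 (15.4%) held a match, against 14.8% of all 32851 windows. The median GC content was 68% in the windows of the Wnt genes and 52.4% in all windows. A match of letters is a description, and none in a window says only that these letters are not there.

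Genes of the pathway outside the families above were counted in 4 lists: surface modulators, cytoplasmic and nuclear transducers, canonical target genes and planar polarity genes. The genes named from them were those called in the class fit, and others chosen after their values were seen. Of 78 genes, 60 passed the background threshold, and 5 of these were called in the class fit, all lower in the lines, against 11.4% of all genes. Among the genes named below, Sostdc1 passed only through normal arrays, Notum and Prox1 only through T1525, and Fosl1 only through T23. In these genes, which are also in the counts, which group was higher was set by the filter. In T23, 17 of 60 (28.3%) were called, 7 higher and 10 lower, against 30.4% of all genes. In T1525, 25 of 60 (41.7%) were called, 14 higher and 11 lower, against 31.3% of all genes. Between the lines, 15 of 60 (25%) were called, 6 higher and 9 lower in T23, against 8.98% of all genes.

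Of 13 surface modulators above background, 3 were called lower in the class fit; 2 were higher and 4 lower in T23, and 3 were higher and 5 lower in T1525. Over all genes 11.4% were called in the class fit, 30.4% in T23 and 31.3% in T1525. Rspo3, the R-spondin that amplifies Wnt signals through Lgr receptors, read 6.99 in T23 and 6.34 in T1525, against 10.93 in normal 1 and 10.81 in normal 2. In the class fit Rspo3 fell at least 16.3-fold (SE 0.32, limma adjusted p = 0.0138). Sostdc1, a secreted inhibitor of Wnt and BMP signals, was at least 3.44-fold lower (limma adjusted p = 0.0281), and the glypican Gpc3 at least 3.22-fold lower (limma adjusted p = 0.0456).

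Rnf43, a ubiquitin ligase that removes Frizzled from the membrane and is a feedback target of beta-catenin, read 6.40 in T23 and 12.92 in T1525, against 10.24 in normal 1 and 10.13 in normal 2. It was at least 11.2-fold lower in T23 (limma adjusted p = 0.00611) and 6.65-fold higher in T1525 (limma adjusted p = 0.00771) than in normal prostate. Notum, the secreted deacylase that inactivates Wnts and is also a feedback target, read 5.85 in T23 and 10.90 in T1525, against 6.16 in normal 1 and 6.06 in normal 2. It was above background in T1525 alone, at least 18.5-fold over normal prostate (limma adjusted p = 0.00505). Ror2, the receptor tyrosine kinase for Wnt5a, had the other order, at 9.05 in T23 and 5.99 in T1525, against 8.35 in normal 1 and 8.44 in normal 2, at least 5.12-fold higher in T23 than in T1525 (limma adjusted p = 0.017).

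Of 17 canonical target genes above background, 3 were higher and 3 lower in T23 than in normal prostate, and 6 were higher and 4 lower in T1525, where 30.4% of all genes were called in T23 and 31.3% in T1525. Sp5, a transcription factor and direct target of beta-catenin, read 6.12 in T23 and 7.04 in T1525, against 11.24 in normal 1 and 9.97 in normal 2. Set against normal prostate, Sp5 was at least 13.3-fold lower (SE 0.59, limma adjusted p = 0.0344), and it was called lower in T1525 on its own too (11.8-fold, limma adjusted p = 0.0241). Mmp7, a secreted protease of glandular epithelium, was lower by at least 20.2-fold (limma adjusted p = 0.0187). Ccnd1, cyclin D1, fell 4.42-fold and Sox9 10.2-fold in T1525 (limma adjusted p = 0.0114 and 0.00589). Prox1, a homeobox factor, was at least 25.8-fold higher (limma adjusted p = 0.00505), Cd44 at least 15.4-fold (limma adjusted p = 0.0156) and Fgf9 4.04-fold (limma adjusted p = 0.0117) in T1525 than in normal prostate. In T23 the rises were in Twist1, an EMT factor, 11.1-fold (limma adjusted p = 0.00686), Plaur, at least 10.3-fold (limma adjusted p = 0.0154), and Fosl1, at least 4.60-fold (limma adjusted p = 0.0126).

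Of 9 planar polarity genes, 2 were higher and 2 lower in T23 and 3 were higher and 1 lower in T1525. Vangl2 was higher in both lines, 2.61-fold in T23 (limma adjusted p = 0.0281) and 8.99-fold in T1525 (limma adjusted p = 0.00716). Celsr1, an atypical cadherin, was 5.97-fold higher in T1525, and Prickle1 5.78-fold lower there (limma adjusted p = 0.0144 and 0.0104). Of 21 cytoplasmic and nuclear transducers, 1 was lower in T23, and 2 were higher and 1 lower in T1525. Both lists stand beside the 30.4% of all genes called in T23 and the 31.3% called in T1525. Csnk1e, a casein kinase, rose 4.02-fold in T1525 (limma adjusted p = 0.0115).

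**Figure D3:**
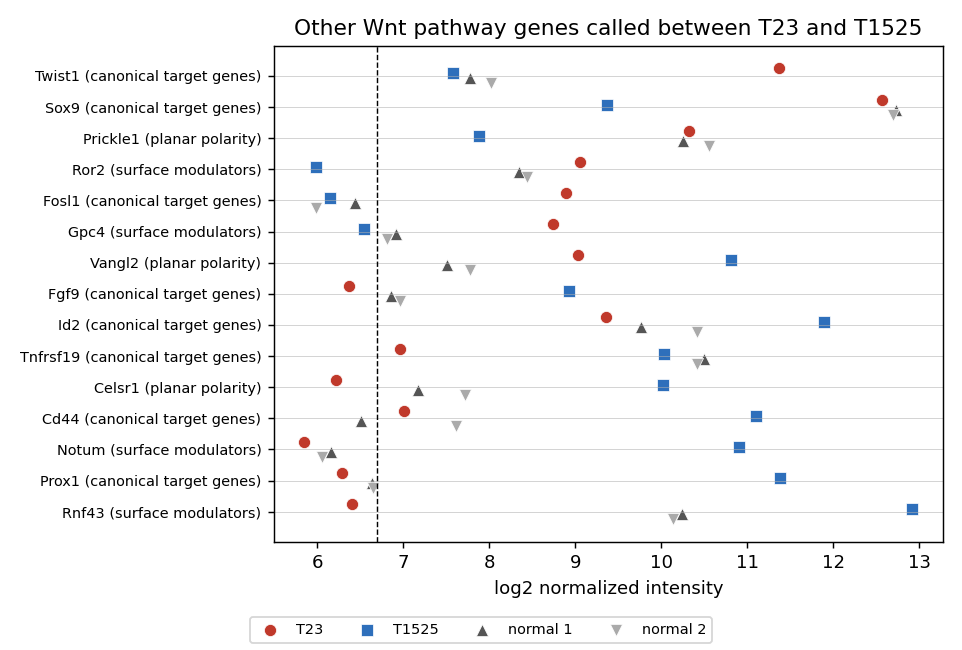
Log2 normalized intensity (x axis) on each array for the 15 other Wnt pathway genes called between T23 and T1525 (y axis, with the list of each gene), ordered by T23 minus T1525; points of a gene are offset vertically and the dashed line is the background threshold of 6.69. Rnf43, Prox1 and Notum are at background in T23 and between 10.90 and 12.92 in T1525, and Twist1, Sox9, Prickle1 and Ror2 are higher in T23.

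Some cell type markers also differed between the lines. Of 10 fibroblast markers, 8 were above background in T23 and 3 in T1525, against 10 in each normal array, and their mean log2 levels were 10.27 in T23 and 6.45 in T1525, against 9.09 in normal 1 and 10.49 in normal 2. In T23, 6 of the 10 lay above both normal arrays, such as Col1a1 at 12.77 and Pdgfra at 12.97, and 4 below both: Dcn at 13.34, Dpt at 8.50, and Lum and Fbln1 at background (5.89 and 6.19). Of 8 luminal epithelial markers, 2 were above background in T23 and 6 in T1525, against 7 in each normal array, with mean levels of 6.56 in T23 and 9.45 in T1525, against 11.85 in normal 1 and 11.53 in normal 2. Krt8, the luminal keratin, read 5.98 in T23 and 14.12 in T1525, and Cdh1, E-cadherin, 6.37 and 10.96. Of the 8 luminal markers, 3 lay above both normal arrays in T1525 (Krt8, Cdh1 and Epcam) and 5 below both, while all 8 lay below both in T23. The margins in T1525 were small. Krt8 read 13.55 in normal 1 and 14.06 in normal 2, and Cdh1 10.67 and 10.74, log2 differences of 0.32 and 0.25 from the normal mean. Epcam read 7.03 in T1525 and was at background on the other arrays. Hoxb13, a homeobox factor of the prostate, read 7.18 in T23 and 5.99 in T1525, against 13.45 in normal 1 and 12.28 in normal 2, and Tmprss2, a secretory-cell protease, 6.34 in T23 and 8.37 in T1525, against 12.98 in normal 1 and 12.91 in normal 2. Pbsn and the smooth muscle myosin Myh11 were at background in both lines. Of 9 smooth muscle markers, 5 were above background in T23 and 2 in T1525, against 9 in each normal array. All lay below both normal arrays in both lines, but Acta2 read 14.72 in T23, against 6.40 in T1525, 15.74 in normal 1 and 15.61 in normal 2. The mean level of the smooth muscle markers was 8.17 in T23 and 6.53 in T1525, against 12.76 in normal 1 and 12.64 in normal 2. Mean levels of 8 basal epithelial markers were 7.15 in T23 and 8.44 in T1525, against 10.20 in normal 1 and 11.08 in normal 2. Of these, Krt14 alone lay above both normal arrays in T1525 (13.72, against 11.86 and 13.08), and Itgb4 lay between them. In T23, Dst alone lay above both (9.28, against 8.52 and 8.87). The other basal markers lay below both normal arrays in each line. Endothelial, leukocyte and adipose lists averaged 6.59, 5.94 and 6.25 in T23 and 6.65, 6.04 and 6.23 in T1525, against 9.24, 9.56 and 9.30 in normal 1 and 10.32, 11.17 and 9.86 in normal 2. The summed intensity of the luminal list was 1048 in T23 and 30173 in T1525, against 56856 in normal 1 and 48442 in normal 2, and that of the fibroblast list 35079 in T23 and 978 in T1525, against 23280 in normal 1 and 47798 in normal 2. In T23, labelled a prostate tumor line, Krt8, Cdh1 and Foxa1 were at background, while Krt18 read 8.94. Of the 8 basal markers, 4 were above background in T23: Dst, Trp63 at 8.24, Itga6 at 8.13 and Col17a1 at 7.23. The part of these markers in the Wnt differences was not tested.

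**Figure D4:**
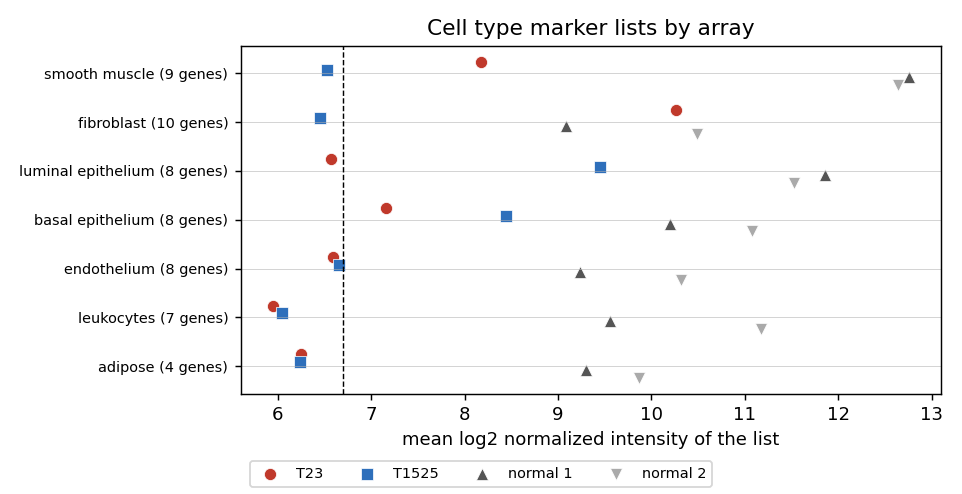
Mean log2 normalized intensity (x axis) of 7 cell type marker lists (y axis, with the number of genes above background on at least 1 array) on each array; points of a list are offset vertically and the dashed line is the background threshold. The fibroblast list is at 10.27 in T23 and 6.45 in T1525, and the luminal list at 6.56 in T23 and 9.45 in T1525.

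The calls rest on few arrays. The 4 calls of the class fit ended without normal 1 and without normal 2, where limma called no probe at all. Both lines lay below both normal arrays for Wif1, Sfrp2, Wnt2 and Wnt4, so leaving out 1 array could not turn the sign of their differences. Without T23 the class fit is the comparison of T1525 with normal again, and without T1525 that of T23. With background values raised to the threshold in the fit itself, the Wnt genes called numbered 2 in T23, 4 in T1525 and 0 between the lines, where limma called 0 of all probes with 4738 at an unadjusted p under 0.05. With cyclic loess scaling, Fzd2 in T23 (limma adjusted p = 0.0649), Wnt7a in T1525 (0.0534), and Lef1 and Wnt6 between the lines (0.0512 and 0.0521) were no longer called. Lef1 was also not called between the lines with the mean of its probes (0.0738).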

How the data were processed

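RNA of 4 samples was measured on Illumina bead arrays. The values used were the normalized linear intensities the authors deposited. Per the submitters' processing notes BeadStudio was used, with no version or normalization method named. The columns held nearly the same sorted values (median gap 0.183%), as after quantile normalization. A table of unnormalized signals has 8 columns named by slide position only, which were tied to no sample and not used.

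Log2 of the intensity was taken. The background threshold, 6.69, lay above the mode of the log2 values (6.12) by the distance that leaves 0.01 in the upper tail of a normal curve, whose SD (0.247) was estimated left of the mode. The 15767 probes that passed it on any array were tested, and a gene was represented by its tested probe with the highest mean. Symbols came from the platform's annotation, with 20984 probes of 1 symbol, 1 of several and 3628 with none given; 20968 were found by Entrez ID in RefSeq's table of GRCm38.p6 and 0 changed.

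Differences were tested two-sided with limma 3.58.1 in R 4.3.3. The class fit had 2 residual and 2.07 prior degrees of freedom, and the fit of T23, T1525 and normal as 3 groups had 1 and 2.95. Alternatives were median scaling, cyclic loess, 4 other settings of the filter and the threshold, another moderation of variances, the mean of a gene's probes, values set to the threshold, a fit of each line with the normal arrays alone, and leaving out each array. Python 3.11.15 and matplotlib 3.10.9 drew the figures.

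The members, lists and tests were chosen with earlier results of these data known. All members were accounted for. Values on every array were given for Sfrp1, Axin2, Ctnnb1, Apc, Lef1, each member with a probe called in any contrast, and the 8 largest differences between the lines in each direction, which made 23 genes. Of the pathway lists, genes called in the class fit and up to 4 a list by size of class difference were to be named. Other genes were added after their values were seen.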

Additional observations from a re-analysis of the deposited data

Results flagged for a closer look

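T23 and T1525 were called apart in limma's test of the difference between the lines, which equals the difference of their differences from normal, for 9 of the 36 Wnt genes, against 8.98% of all genes. Each line had 1 array, and the variance came from the normal pair, which may be technical, and from the prior over all probes. The test therefore holds no spread within a line, and does not establish that the lines differ beyond these arrays. On the log2 scale, T23 minus T1525 was 7.33 for Dkk3, 3.78 for Wnt10a, 3.15 for Wnt5a, 2.67 for Fzd1 and 1.66 for Wnt6. It was -3.88 for Nkd2, -3.25 for Fzd10, -3.10 for Axin2 and -1.70 for Lef1. The limma adjusted p lay between 0.0132 for Dkk3 and 0.0429 for Wnt6. Fibroblast and luminal markers differed between the lines too, and their part was not tested.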

How the results depend on the processing

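No paired analysis was possible because the lines are both numbered 1 in the labels and the normal arrays 1 and 2. In the class comparison the 4 Wnt genes called stayed 4 under the 9 other settings that kept all arrays, and the same 4 genes in each. Many of these settings could hardly change them. Median scaling left the median class difference over all genes at 0.113, against 0.112. For Sfrp2, Wnt2 and Wnt4, which group was higher was set by the filter. Leaving out 1 array gave between 0 and 14 Wnt genes and between 0 and 25 genes of the pathway lists, against 4 and 5; without a normal array 1 residual degree of freedom was left, and in the fit of 3 groups none, so that no test was run there. The class difference changed sign for 9 named genes when 1 array was left out. Without T23 or without T1525, the class difference is that of the remaining line from normal, so those values repeat the comparison of that line and are no separate result. Leaving out each array gave log2 differences of -4.32 to 3.01 for Dkk3, -1.77 to 2.10 for Nkd2, -2.15 to 0.95 for Axin2, -0.59 to 0.63 for Ctnnb1, -0.79 to 2.46 for Fzd10, -0.55 to 0.81 for Fzd3, -0.49 to 3.29 for Wnt10a, -0.79 to 2.36 for Wnt5a and -0.055 to 1.12 for Wnt7a; the ends of each range came without T23 and without T1525. With background values raised to the threshold, chosen after seeing the data for the single lines, 2 Wnt genes were called in T23, 4 in T1525 and 0 between the lines, against 14, 11 and 9; the prior degrees of freedom were then 0.485, against 2.95. Of 38 calls of named genes tested this way 28 were lost, at limma adjusted p between 0.0512 and 0.198. A fit of 1 line with the normal arrays gives the main result again, since the variance comes from the normal pair in both. The settings of the filter leave each log2 difference as it was, so neither of these can change a direction. Of 778 other values of named genes under settings that kept all arrays or this fit of 1 line, 761 kept their direction and side of the threshold. Of the rest, 5 lost and 5 gained a call, and 7 changed sign without a call on either side. With cyclic loess these were the class differences of Ctnnb1 (-0.12), Fzd3 (-0.055) and Nkd2 (-0.156) and T1525 minus normal for Fzd2 (-0.023) and Wnt6 (-0.20). With the mean of a gene's probes they were T23 minus normal (0.38) and T23 minus T1525 (0.034) for Ctnnb1. Cyclic loess moved the median class difference over all genes to -0.07, against 0.11. Counted over probes rather than genes, the share of class calls that were higher moved to 37.8%, against 52.4%. That share of probe calls moved to 44.8% in T23 and 46.3% in T1525, against 56.1% and 57.7%. Probes at background give only bounds.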
